A study of Rattus norvegicus with 113 samples.

Results

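The genes described here are Cd74 and the rat MHC class II genes RT1-Da, RT1-Db1, RT1-Ba, RT1-Bb, RT1-DMa and RT1-DMb, together with Ciita. They were taken as the probes whose RefSeq accession carries 1 of these symbols, which gave 8 of the 16691 genes named on the arrays. The larger of the 2 array designs held 9 probes for them and the smaller held 10. MHC class II molecules are pairs of an alpha and a beta chain that show peptides to CD4 T cells at the cell surface. In the rat, RT1-Da and RT1-Db1 encode the chains of the RT1.D molecule, and RT1-Ba and RT1-Bb those of RT1.B. Cd74, the invariant chain, holds the new pair together and blocks its groove until it is cut away in the endosome, RT1-DMa and RT1-DMb form the chaperone that exchanges the remaining fragment for a peptide, and Ciita is the transactivator on which transcription of the group depends. In the brain these genes are known from microglia and macrophages, which raise them when activated, and interferon-gamma is the best known inducer.

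RNA from the hippocampus and from a piece of ipsilateral cortex next to the injury site of Sprague-Dawley rats was hybridised to 113 one-colour arrays, each 1 sample. Naive rats were neither handled nor anesthetized, sham rats had the surgery without the injury, and TBI rats had the surgery and a fluid percussion injury. Tissue was taken 24 hr, 2 weeks, 3 months, 6 months or 12 months after injury or sham surgery. The groups held 4 arrays each, except the hippocampus at 24 hr, where 3 TBI and 2 sham arrays and no naive one were used here. The methods describe adult males, with 4 independent rats per group and interval. By their count of rats, hippocampus and cortex came from the same rats, and the labels do not say which arrays share a rat. An age in weeks or months is not in the labels, and the labels and the methods grade the injury differently. The piece of cortex and the hippocampus hold all cell types of the tissue, so each value is an average over them.

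All levels below are log2 values relative to the 75th percentile of the array, so that 0 is the signal of a probe at that percentile and a difference of 1 is 2-fold. A probe was tested where all arrays of 1 of the groups compared, or of both, had it well above background, and a difference was called at an adjusted p (limma, Benjamini-Hochberg over all tested probes) under 0.05. Levels of different probes were not set against each other. The 2 designs differ in their probes, so levels of the hippocampus at 24 hr and 3 months (smaller design) were not set against the rest.

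The share of probes well above background ran from 41.25% to 93.01% of an array, with a median of 55.96%, and no probe of these genes was saturated. The array at 93.01%, replicate 3 of the cortex sham group at 2 weeks, stood apart from its group, and the results of the cortex at 2 weeks are given with and without it. Summed levels of the hippocampus markers Prox1, Zbtb20 and Lct (1 being the 75th percentile) were 6.23 to 9.76 in the hippocampus arrays of the larger design and 1.9 (the array that stands apart) to 13.3 in the cortex arrays, so this list did not tell the tissues apart. The arrays of a group lay on 1 slide. The sham and TBI groups shared that slide in 5 of 10 comparisons (hippocampus at 2 weeks, 3 months and 12 months, cortex at 3 and 12 months), and in the other 5 slide and group cannot be told apart. The TBI and naive groups shared a slide in 0 of 9 comparisons and the sham and naive groups in 4 of 9. Where these slides differed, slide and group cannot be told apart either.

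The promoters are shown because genes of this group are known to share promoter elements through which Ciita acts, the X and Y boxes. RefSeq promoters (GRCr8) were held for 6 of the 8 genes. Each line below is the 150 bases before the transcription start, 5′ to 3′ on the gene's strand, with matches to GCAAC (from the X box) and GATTGG (the core of the Y box, an inverted CCAAT) in capitals. Matches on either strand are in capitals, a GATTGG of the other strand reading CCAATC, and the letters were chosen after the promoters had been read. The windows are chr18:56527056-56527205 on the plus strand for Cd74, chr20:4515265-4515414 on the plus strand for RT1-Da, chr20:4560163-4560312 on the minus strand for RT1-Db1, chr20:4576907-4577056 on the plus strand for RT1-Ba, chr20:4604119-4604268 on the minus strand for RT1-Bb and chr20:4712336-4712485 on the minus strand for RT1-DMa.
Cd74: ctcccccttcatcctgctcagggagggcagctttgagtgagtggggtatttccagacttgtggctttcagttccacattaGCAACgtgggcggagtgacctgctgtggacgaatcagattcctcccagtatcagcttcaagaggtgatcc
RT1-Da: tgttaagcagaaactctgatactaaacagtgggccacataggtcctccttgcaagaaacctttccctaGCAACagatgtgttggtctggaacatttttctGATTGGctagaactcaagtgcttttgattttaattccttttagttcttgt
RT1-Db1: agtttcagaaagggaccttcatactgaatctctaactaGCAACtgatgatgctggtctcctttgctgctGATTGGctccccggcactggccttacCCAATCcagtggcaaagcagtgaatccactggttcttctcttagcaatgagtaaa
RT1-Ba: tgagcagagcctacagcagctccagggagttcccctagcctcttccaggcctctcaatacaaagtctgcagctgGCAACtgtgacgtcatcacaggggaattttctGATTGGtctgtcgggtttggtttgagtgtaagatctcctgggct
RT1-Bb: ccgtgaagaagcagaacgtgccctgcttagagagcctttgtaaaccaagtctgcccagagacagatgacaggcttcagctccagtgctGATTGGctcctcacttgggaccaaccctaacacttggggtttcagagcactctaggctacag
RT1-DMa: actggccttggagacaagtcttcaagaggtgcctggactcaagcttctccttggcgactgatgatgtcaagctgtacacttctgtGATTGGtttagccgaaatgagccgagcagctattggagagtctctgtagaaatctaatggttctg

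RT1-Da, RT1-Db1 and RT1-Ba carried both motifs, with GCAAC first and 26 or 27 bases between them. The first base of GATTGG lay 50, 81 and 44 bases before the start of these genes, and RT1-Db1 held the 1 match on the other strand, at 55 bases. RT1-Bb and RT1-DMa carried GATTGG at 62 and 65 bases before the start and no GCAAC, and Cd74 carried GCAAC 70 bases before the start and no GATTGG. Over the same 150 bases of 33469 rat promoters, 9.35% held GATTGG on either strand, 19.4% held GCAAC and 33 (0.0986%) held the pair in this order with 20 to 30 bases between. A match is a match of letters, and no array measured binding to these windows.

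At 2 weeks after injury, Cd74 stood far higher in the hippocampus of TBI rats than in sham rats, with RT1-Da, RT1-Db1 and RT1-Bb, whereas the DM chaperone genes moved little. Cd74 read −1.59, −1.34, −0.42 and 0.08 in the 4 sham arrays and 2.96, 2.37, 3.37 and 3.90 in the 4 TBI arrays. The groups did not overlap, and the lowest TBI array lay more than 2 log2 units above the highest sham array. The difference was 3.96 (SE 0.55, 95% interval 2.76 to 5.17), 15.6-fold, with an adjusted p of 0.0132 in limma. Because the tissue was taken whole, more cells of a type and more RNA per cell cannot be told apart in this or any later value.

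Both chains of RT1.D rose with it. RT1-Da, the alpha chain, read −3.38, −3.31, −2.96 and −2.28 in the sham arrays and 0.89, −0.16, 1.30 and 1.70 in the TBI arrays, a difference of 3.91 (SE 0.53, adjusted p 0.0132, limma) or 15.1-fold. RT1-Db1, the beta chain, read −2.52, −2.58, −2.26 and −2.04 against 0.01, −0.20, 0.27 and 0.50, a difference of 2.497 (SE 0.23, adjusted p 0.00365), 5.65-fold. In neither gene did a sham array reach a TBI array. RT1-Bb, the beta chain of RT1.B, gave −4.95, −4.03, −5.04 and −4.48 in sham and −1.21, −1.91, −0.72 and −1.48 in TBI, and its difference of 3.29 (SE 0.29) was 9.81-fold at an adjusted p of 0.00365. It entered the test only through the TBI group, where it is high, with 3 of 4 sham arrays well above background, so its call is a description and adds no support to the count below. Its alpha chain partner RT1-Ba was well above background on 6 of the 96 arrays of the larger design and on none of the 17 of the smaller, and was not tested here.

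The DM genes behaved differently. RT1-DMa read 2.36, 2.14, 2.30 and 2.55 in sham and 2.52, 2.26, 2.73 and 2.57 in TBI, and the groups overlapped, with a difference of 0.18 (95% interval −0.11 to 0.48, adjusted p 0.544). RT1-DMb read 0.24, 0.05, 0.36 and 0.47 in sham and 0.57, 0.60, 1.41 and 1.30 in TBI. These groups did not overlap, but the difference of 0.69 (95% interval 0.23 to 1.15) missed the threshold at an adjusted p of 0.135. Ciita was well above background in 2 of 4 TBI arrays and in no sham array, and was not tested. Of the 6 members tested in this comparison 4 were called, all higher in TBI, where 1.83% of all 25065 tested probes were called. RT1-Bb is among these 4 and adds no support, so Cd74, RT1-Da and RT1-Db1 are the calls to set against that share. By the other rule used here, a fold of at least 1.4 with an unadjusted p under 0.05, 5 members passed against 4.21% of all probes, RT1-Bb again among them. Without TBI replicate 3 or without TBI replicate 4, and with no filter on dim probes, RT1-Db1 and RT1-Bb were called and Cd74 and RT1-Da were not. With only the sham and TBI arrays, which shared 1 slide, RT1-Da, RT1-Db1 and RT1-Bb were called and Cd74 had an adjusted p of 0.0502. The Cd74 difference was 3.71 to 4.26 over the fits that left out 1 array.

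**Figure D1:**
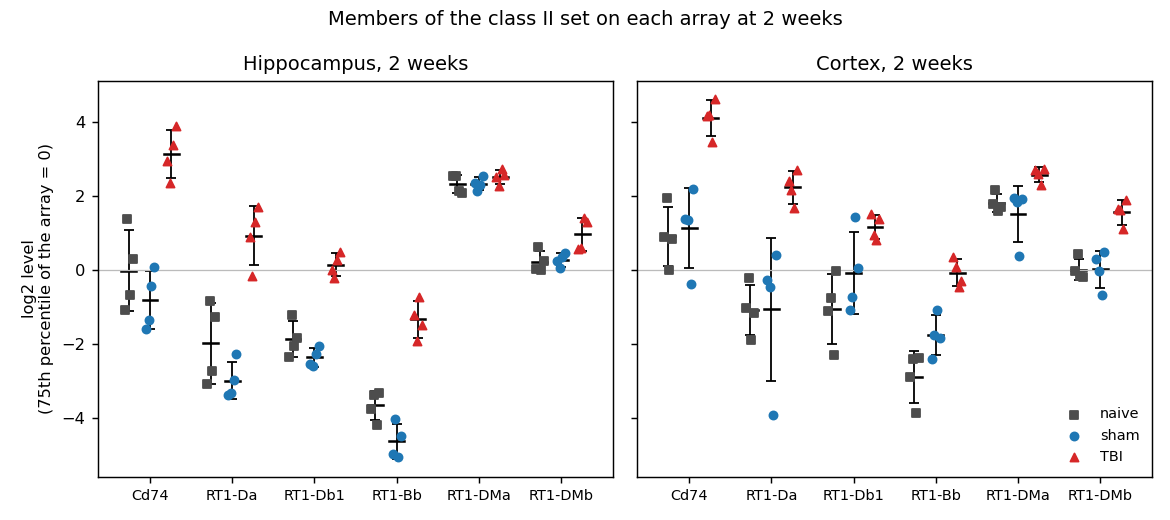
Log2 level of 6 members (relative to the 75th percentile of the array) in each naive, sham and TBI array at 2 weeks, in the hippocampus and the cortex; points are arrays and bars the group mean ± SD. In the hippocampus the 4 TBI arrays of Cd74, from 2.37 to 3.90, lie above all 4 sham arrays, while the RT1-DMa groups overlap.

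Against naive rats, the hippocampus at 2 weeks gave the same picture with RT1-DMb added. Cd74 of the naive arrays read −1.07, 1.38, −0.67 and 0.31, and the TBI group was higher by 3.16 (adjusted p 0.00643). RT1-Da was higher by 2.91 (adjusted p 0.00831), RT1-Db1 by 2.01 (4.69e-04), RT1-Bb by 2.32 (9.32e-04) and RT1-DMb by 0.74 (0.0492). Thus 5 of 6 tested members were called, beside 9.46% of all probes. The 2 comparisons share the TBI arrays. Naive and TBI arrays lay on different slides, so slide and group cannot be told apart in the second.

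In the cortex at 2 weeks, Cd74 and RT1-DMb passed the test, and the array that stands apart decided the rest. Cd74 read 1.397, 1.36, −0.38 and 2.20 in the sham arrays, the third value being the array that stands apart, and 4.16, 4.18, 3.46 and 4.62 in the TBI arrays. The groups did not overlap, and the difference of 2.96 (SE 0.53, 95% interval 1.81 to 4.12, adjusted p 0.0302) was 7.81-fold. Without that array it was 2.46 with an adjusted p of 0.00985. RT1-DMb read 0.31, −0.03, −0.66 and 0.48 in sham and 1.64, 1.62, 1.11 and 1.90 in TBI. It was higher by 1.54 (SE 0.28, adjusted p 0.0336), 2.91-fold, and without the array by 1.31 (adjusted p 0.00774).

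The remaining cortex members had differences of the same sign, apart from Ciita, and none was called with all arrays in. RT1-Da, at −0.27, −0.47, −3.90 and 0.42 in sham and 2.40, 2.16, 1.68 and 2.71 in TBI, differed by 3.29 (adjusted p 0.0987), and by 2.34 (0.00778) without the array. RT1-Db1 is the member that the array moved the other way: it read −1.08, −0.74, 1.43 and 0.05 in sham and 1.51, 0.94, 0.82 and 1.38 in TBI, so that the groups overlapped through that array alone. Its difference was 1.25 (adjusted p 0.527), and 1.75 (0.0448) without it. RT1-Bb differed by 1.69 (0.0791) and RT1-DMa by 1.05 (0.292), and without the array by 1.92 (0.0127) and 0.68 (0.0228). Ciita was well above background on all 4 TBI arrays and on the sham array that stands apart alone. Its difference of −0.49 (adjusted p 0.817) became 0.72 (0.719) without that array and also turned under median scaling.

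Counted together, 2 of 7 tested members were called in the cortex at 2 weeks beside 0.662% of all probes, and 6 of 7 without the array, beside 7.98%. The rule of a 1.4-fold change with unadjusted p gave 6 members beside 8.63% of all probes. Against naive rats, Cd74 (higher by 3.19, adjusted p 0.0155), RT1-Bb (2.81, 0.00588) and RT1-DMb (1.55, 0.0247) were called, 3 of 7 beside 0.971% of all probes, and 6 beside 12.5% once the sham array was left out of the shared estimate of the spread. Both calls against sham were lost when sham replicate 1 or 2 or TBI replicate 1, 2 or 4 was left out. They were also lost under the median, quantile and deposited scalings, which moved the median difference of all probes by 0.76, 0.26 and −0.58.

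The Cd74 change was set against that of the other members within each array at 2 weeks, in 5 pairs a tissue, by two-sided exact permutation tests over 70 splits of 4 and 4 arrays, whose smallest p is 0.0286. In the hippocampus, Cd74 rose by 1.47 more than RT1-Db1, 3.78 more than RT1-DMa and 3.27 more than RT1-DMb, each at an exact p of 0.0286 (0.0476 after Benjamini-Hochberg). Its change exceeded that of RT1-Da by 0.05 (exact p = 0.857) and that of RT1-Bb by 0.67 (exact p = 0.314), and a p that misses the threshold does not show that these changes were equal. In the cortex the same 3 genes fell behind Cd74, by 1.72, 1.91 and 1.42, at the same exact p, while RT1-Da (−0.33, exact p = 0.886) and RT1-Bb (1.28, exact p = 0.114) did not pass. These cortex values rest on the sham array that stands apart. Without it the gaps were 0.71 for RT1-Db1 (exact p = 0.0571, 0.0952 after Benjamini-Hochberg), 1.78 for RT1-DMa and 1.14 for RT1-DMb (each exact p = 0.0286, 0.0714 after Benjamini-Hochberg), so no cortex gap passed after adjustment over the 5 pairs. That of RT1-Bb was then 0.54 and that of RT1-Da turned to 0.11 (each exact p = 0.257).

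At 24 hr, Cd74 and RT1-Da were already higher in the hippocampus of TBI rats. The sham and TBI arrays lay on different slides scanned on different days, so slide, scan day and group cannot be told apart. Cd74 read −1.17 and −0.52 in the 2 sham arrays and 1.74, 0.26 and 1.16 in the 3 TBI arrays, a difference of 1.90 (SE 0.46, 95% interval 0.74 to 3.06, adjusted p 0.049) or 3.73-fold. RT1-Da read −3.29 and −2.83 against 0.14, −1.21 and −0.04, a difference of 2.69 (SE 0.44, adjusted p 0.02), 6.47-fold. RT1-Db1 and RT1-DMb were each higher by 1.21 with no overlap but missed the threshold, at adjusted p 0.0726 and 0.0708. RT1-DMa differed by 0.62 (adjusted p 0.204) and RT1-Bb by 0.52 (adjusted p 0.588), with overlapping groups. The calls were 2 of 6 tested members beside 16.4% of all probes, and 4 of 6 by the 1.4-fold rule beside 24.4%. Left out singly, either sham array or TBI replicate 1 ended both calls and TBI replicate 3 that of Cd74, while without TBI replicate 2 RT1-Db1 was called too. With the replicate number as a block none was called.

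In the cortex at 24 hr the sham arrays themselves were split. Cd74 read 0.84, 0.96, 0.66 and 1.05 in naive rats, 0.50, 2.48, 0.43 and 2.54 in sham rats and 2.82, 2.54, 1.95 and 2.72 in TBI rats. Sham replicates 2 and 4 thus lay with the TBI arrays and replicates 1 and 3 below the naive ones, and RT1-Da, RT1-Db1, RT1-Bb, RT1-DMa and RT1-DMb had the same pair of sham arrays on top. Against sham no member of 7 tested was called, where 0.00387% of all probes were called, so almost no probe passed. Cd74 differed by 1.02 (adjusted p 0.315), RT1-DMb by 0.88 (0.236) and Ciita by 1.04 (0.362), a sign that turned with normexp background correction and with the mean of its probes. By limma 4 members had an unadjusted p under 0.05 beside 15.2% of all probes, and all 4 passed the 1.4-fold rule beside 8.04% of all probes. Against naive rats 5 of 7 tested members were called beside 16.1% of all probes: Cd74 higher by 1.63 (adjusted p 0.0336), RT1-Da by 1.94 (0.0263), RT1-Db1 by 1.53 (0.0284), RT1-DMa by 1.20 (0.0139) and RT1-DMb by 1.58 (0.0104). Leaving out any naive array, or TBI replicate 1, 2 or 4, kept RT1-DMa and RT1-DMb and lost Cd74 and RT1-Db1. RT1-Da was lost with them unless the array left out was naive replicate 1. Here too the naive and TBI arrays lay on different slides, so slide and group cannot be told apart. The summed microglia markers were 51.4 and 45.8 in sham replicates 2 and 4 and 27.4 and 35.2 in replicates 1 and 3. Against naive rats limma called Cd68, Fcgr2b, Itgam, Ptprc and Tyrobp of this list higher in TBI. P2ry12 (−1.36, adjusted p 0.0165) and Tmem119 (−1.01, adjusted p 0.0277) were lower. Among markers of other immune cells Cd163, F13a1, Mrc1, Clec10a, Cd3d, Cd8a, S100a8 and S100a9 were higher and Cd4 lower. Summed neutrophil markers were 0.386 to 3.58 in sham, 0.9 to 12.5 in TBI and 0.26 to 0.566 in naive arrays. The part of these cells in the members' levels was not tested.

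**Figure D2:**
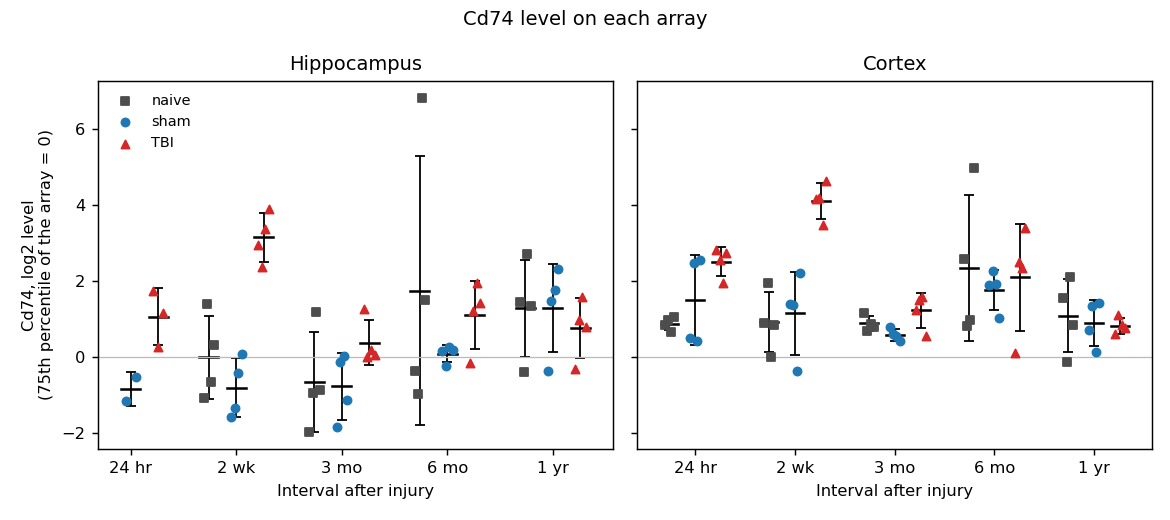
Log2 level of Cd74 (relative to the 75th percentile of the array) in every array by interval, one panel a tissue, with naive arrays as squares, sham arrays as circles, TBI arrays as triangles and bars at the mean ± SD. The TBI arrays at 2 weeks, 2.37 to 3.90 in the hippocampus and 3.46 to 4.62 in the cortex, lie above all sham arrays of their tissue and interval, and from 3 months on TBI and sham overlap.

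From 3 months on, limma called no member between TBI and sham, or between TBI and naive, in either tissue. Against sham it called 0 to 0.0443% of all probes at these times, so almost no probe passed, and against naive 0.0062% to 13.3%. At 3 months 1 member in each tissue had an unadjusted p under 0.05 against sham, where 4.22% (hippocampus) and 6.56% (cortex) of all probes had one. In the hippocampus at 3 months Cd74 read −1.86, −0.14, 0.03 and −1.13 in sham and 1.26, −0.02, 0.19 and 0.06 in TBI, a difference of 1.15 (95% interval −0.18 to 2.47). RT1-Db1 was the 1 member of 5 tested that passed the 1.4-fold rule there (0.82, unadjusted p 0.0365), beside 1.42% of all probes, and its groups overlapped. At 6 months the hippocampal Cd74 difference was 1.02 (95% interval −1.90 to 3.94), and at 12 months it was −0.54 (−2.04 to 0.97). RT1-Bb was well above background on 1 of 4 sham arrays at 6 months and on all 4 TBI arrays, and its adjusted p was 0.773. The estimate of the spread at 6 months was shared with the naive group, whose replicate 3 read 6.82 for Cd74. Without that array the adjusted p in limma was 0.498 for Cd74. RT1-Bb then differed by 1.20 (unadjusted p 0.0247, adjusted p 0.354 in limma). With all arrays in, the Cd74 intervals of these times leave room for a change in either direction.

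In the cortex at 3 months Cd74 read 0.78, 0.61, 0.54 and 0.41 in sham and 1.24, 1.51, 1.57 and 0.56 in TBI. The difference of 0.64 (95% interval 0.20 to 1.07, adjusted p 0.646) passed the 1.4-fold rule as the 1 member to do so, beside 2.68% of all probes. At 6 and 12 months Cd74 differed by 0.32 (−1.64 to 2.29) and −0.08 (−1.02 to 0.86). RT1-DMa had the narrowest intervals of the tested members at these times, at 0.11 (−0.14 to 0.37) and 0.02 (−0.17 to 0.20), the latter turning sign under median scaling.

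**Figure D3:**
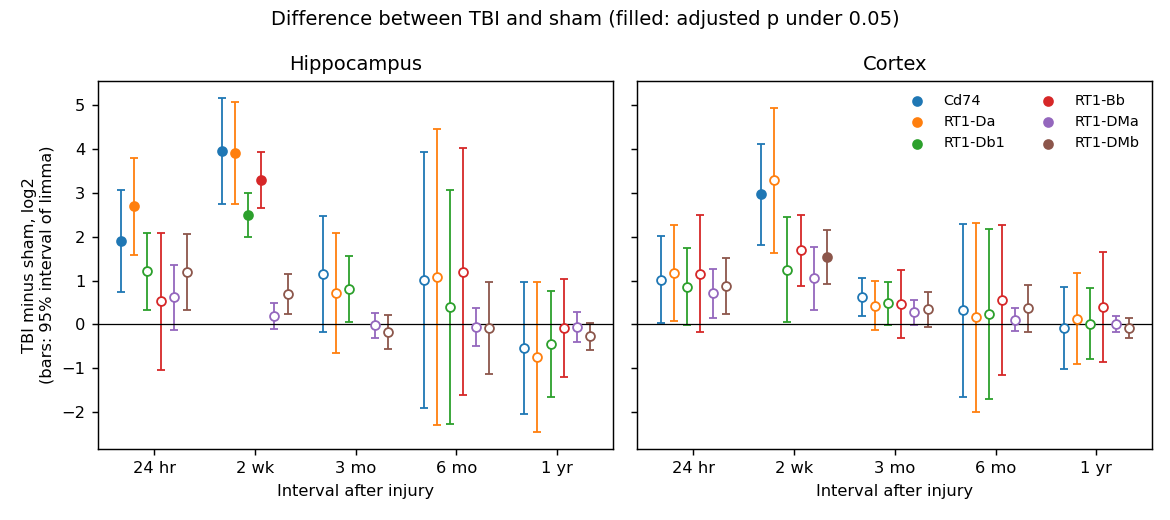
Difference of TBI minus sham in log2 level for 6 members over the 5 intervals in each tissue, with the limma 95% interval; filled symbols mark an adjusted p under 0.05. Filled symbols occur at 24 hr and 2 weeks in the hippocampus and at 2 weeks in the cortex; RT1-Bb was not tested in the hippocampus at 3 months.

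The fall of the TBI effect between intervals was tested as an interaction. From 2 weeks to 12 months the hippocampal difference of TBI and sham changed by −4.50 for Cd74, −4.65 for RT1-Da, −2.94 for RT1-Db1 and −3.38 for RT1-Bb, each at an adjusted p of 0.03 in limma. These 4 of 6 tested members were called beside 0.712% of all probes. Among them is RT1-Bb, which was not well above background on every sham array at 2 weeks. Leaving out sham replicate 1, 2 or 3 or TBI replicate 3 or 4 at 2 weeks, or sham replicate 2, 3 or 4 or TBI replicate 1 or 4 at 12 months, ended all 4 calls, and without TBI replicate 2 at 12 months RT1-Bb alone was called. The change from 2 weeks to 6 months was −2.95 for Cd74 (adjusted p 0.0721), and limma called 0 members, with 4 at an unadjusted p under 0.05 beside 13.7% of all probes. Without TBI replicate 2 at 2 weeks it called those 4, among 248 of 25476 probes. In the cortex, from 2 weeks to 12 months, Cd74 changed by −3.04 (adjusted p 0.0751) and RT1-DMb by −1.63 (0.0718), with 0 called by limma and 5 at an unadjusted p under 0.05 beside 5.76% of all probes. Without the sham array that stands apart 5 were called beside 5.21%, and Cd74 changed by −2.54. Without sham replicate 4 or TBI replicate 3 at 2 weeks, Cd74 and RT1-DMb were called. The change from 24 hr to 2 weeks in the cortex was 1.95 for Cd74 with an adjusted p of 0.797, and 1.44 (0.509) without the array, with 1 member at an unadjusted p under 0.05 beside 3.38% of all probes. From 2 weeks to 6 months in the cortex 0 members were called by limma and 4 had an unadjusted p under 0.05 beside 3.64%, Cd74 changing by −2.64 (adjusted p 0.724), and by −2.14 (0.363) without the array.

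Hippocampus and cortex were compared at 2 weeks, 6 months and 12 months by the difference of their TBI effects. The fit took the arrays of the 2 tissues as independent, although the methods have both from the same rats. In it limma called no member, beside 0 to 0.004% of all probes. At an unadjusted p under 0.05 there were 4 members at 2 weeks beside 3.14% of all probes, and 0 at 6 and 12 months beside 4.27% and 11.7%. At 2 weeks the effect on RT1-Bb was larger in the hippocampus by 1.61 (95% interval 0.63 to 2.59) and that on RT1-DMb smaller by 0.85 (0.03 to 1.68), with adjusted p of 0.71 for each. Cd74 differed by 1.00 (−0.55 to 2.54). The RT1-Da difference of 0.62 turned sign under median and quantile scaling. Without the cortex sham array that stands apart no member was called either, and the values were 1.505 for Cd74 (adjusted p 0.31), 1.57 for RT1-Da (0.267), 1.38 for RT1-Bb (0.221) and −0.62 for RT1-DMb (0.411).

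In the 9 comparisons of sham with naive, limma called 0 members, beside 0 to 18.3% of all probes. The unadjusted p was under 0.05 for RT1-Bb in the hippocampus at 2 weeks (−0.97, adjusted p 0.0522), for RT1-Bb in the cortex at 2 weeks (1.12, 0.753, and 0.89, 0.289 without the array that stands apart) and for RT1-DMb in the cortex at 24 hr (0.70, 0.163). In these comparisons 28%, 2.19% and 24.2% of all probes had one. These 3 member differences do not share a direction, and without that array RT1-Da in the cortex at 2 weeks (0.97, adjusted p 0.283) had an unadjusted p under 0.05 as well. Across intervals limma called 0 members of the naive arrays, beside 3.01 to 33.1% of all probes over 6 comparisons. The naive intervals of a tissue lay on different slides, so interval and slide cannot be told apart there. In naive rats RT1-DMa was higher in hippocampus than in cortex at 6 months, by 0.63 (adjusted p 0.0142, 1 of 6 tested, beside 40.1% of all probes), and at 12 months, by 0.65 (0.00257). RT1-DMb was higher by 0.45 at 12 months (0.0289), which made 2 of 5 beside 37.2% of all probes. With so many probes called, these calls do not set the members apart. Naive hippocampus and cortex lay on different slides, so tissue and slide cannot be told apart, and the fit took their arrays as independent. At 2 weeks none was called, and with the replicate number as a block RT1-Bb and RT1-DMa were. The same block ended the call at 6 months.

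The Cd74 group means are given in order over the intervals. Groups of different intervals mostly lay on different slides, so interval and slide cannot be told apart in this order. In the hippocampus on the larger design the means ran from −0.82 ± 0.78 (SD, n = 4 here and below) in sham at 2 weeks through −0.01 ± 1.097 in naive at 2 weeks and 0.09 ± 0.23 in sham at 6 months to 0.75 ± 0.80 and 1.102 ± 0.90 in TBI at 12 and 6 months. Above these came naive at 12 months (1.27 ± 1.28), sham at 12 months (1.29 ± 1.16), naive at 6 months (1.74 ± 3.55) and TBI at 2 weeks (3.15 ± 0.65). Each gap between neighbours in this order was smaller than the larger of their SDs.

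In the cortex the order began with sham at 3 months (0.58 ± 0.16), TBI at 12 months (0.82 ± 0.21), naive at 24 hr (0.88 ± 0.17) and naive at 3 months (0.88 ± 0.20). Sham at 12 months (0.90 ± 0.61), naive at 2 weeks (0.92 ± 0.80), naive at 12 months (1.09 ± 0.97), sham at 2 weeks (1.14 ± 1.09, and 1.65 ± 0.48 over the 3 arrays without the one that stands apart) and TBI at 3 months (1.22 ± 0.46) followed. Then came sham at 24 hr (1.49 ± 1.18), sham at 6 months (1.77 ± 0.52), TBI at 6 months (2.09 ± 1.405), naive at 6 months (2.33 ± 1.93), TBI at 24 hr (2.51 ± 0.39) and TBI at 2 weeks (4.11 ± 0.48). Neighbours differed by more than both SDs only at the bottom, from sham at 3 months to TBI at 12 months, and at the top, from TBI at 24 hr to TBI at 2 weeks. On the smaller design the hippocampal means were −0.85 ± 0.46 (n = 2) in sham and 1.05 ± 0.75 (n = 3) in TBI at 24 hr, and −0.66 ± 1.32 in naive, −0.77 ± 0.89 in sham and 0.37 ± 0.60 in TBI at 3 months.

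The highest levels of Cd74, RT1-Da and RT1-Db1 among the 96 arrays of the larger design were not in injured rats. They were in 2 naive arrays at 6 months, replicate 3 of the hippocampus and replicate 4 of the cortex. In the hippocampus array Cd74 read 6.82, where the other 3 naive arrays read −0.98 to 1.49, which is 147-fold over their median. RT1-Da at 5.72 was 295-fold, RT1-Db1 at 4.63 82.4-fold, RT1-DMb at 2.77 4.62-fold and RT1-DMa at 2.75 1.41-fold over the median of the other 3. RT1-Bb read 1.82 and Ciita −1.47, each with 1 of the other 3 arrays well above background, where the others read −6.06 to −3.61 and −6.28 to −3.49, and RT1-Ba was not well above background on this array.

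**Figure D4:**
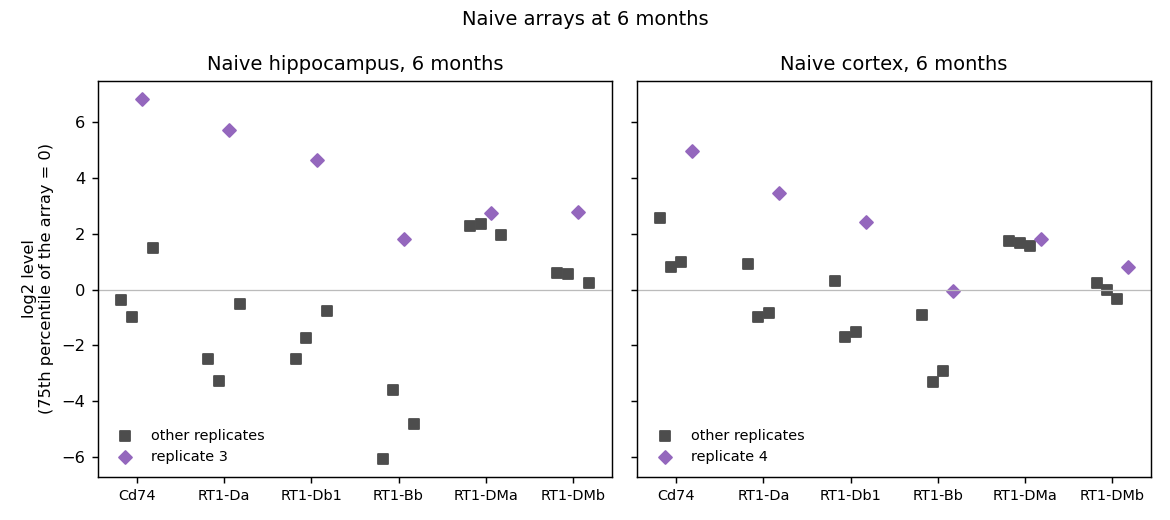
Log2 level of the members (relative to the 75th percentile of the array) in the 4 naive arrays of each tissue at 6 months, with hippocampus replicate 3 and cortex replicate 4 drawn as diamonds. Cd74 reads 6.82 in the first and 4.96 in the second, and the RT1-DMa points lie close together.

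The cortex array read 4.96 for Cd74, 15.8-fold over the median of its group's other arrays, 3.45 for RT1-Da (19.5-fold) and 2.43 for RT1-Db1 (15.5-fold), with RT1-DMa 1.1-fold. Summed microglia markers were 198 in the hippocampus array against 39.0 to 48.9 in the other naive arrays, and 59.4 in the cortex array against 26 to 29.4. Summed T cell markers were 9.12 against 2.38 to 2.64 and 4.49 against 2.23 to 2.49, and B cell markers in the hippocampus array 2.77 against 0.998 to 1.17. Each sum adds all genes of its list, Cd4 among those of T cells, so it does not show which gene was high. The part of microglia, T cells and B cells in the members' levels was not tested. Left out, the hippocampus array turned the Cd74 difference of TBI and naive at 6 months from −0.64 to 1.06 (adjusted p 0.257), and that of TBI and sham, 1.02, kept its size at an adjusted p of 0.498.

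The spread between arrays also set the members apart. The median SD of a group over the 27 groups with 4 arrays was 0.80 for Cd74 and RT1-Da, 0.51 for RT1-Db1 and 0.67 for RT1-Bb, but 0.20 for RT1-DMa and 0.28 for RT1-DMb. Over the 96 arrays of the larger design, with the mean of each tissue and interval subtracted, RT1-Da followed Cd74 at r = 0.985, rank 1 of 11397 genes. RT1-Db1 (0.897) was rank 2, RT1-Bb (0.858) rank 4, RT1-DMb (0.792) rank 48 and RT1-DMa (0.535) rank 387. The median gene had r = 0.0404, the 99th percentile was 0.7317, and Ciita, which was dim on most arrays, reached 0.416. With the mean of each group subtracted as well, r was 0.981 for RT1-Da, 0.881 for RT1-Db1, 0.792 for RT1-Bb, 0.759 for RT1-DMb and 0.395 for RT1-DMa. Without the cortex sham array that stands apart r was 0.989 for RT1-Da, 0.953 for RT1-Db1, 0.886 for RT1-Bb, 0.782 for RT1-DMb, 0.512 for RT1-DMa and 0.555 for Ciita. These values are descriptions: the arrays share depth, tissue dissection and slide, and the 2 naive arrays at 6 months are among them.

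**Figure D5:**
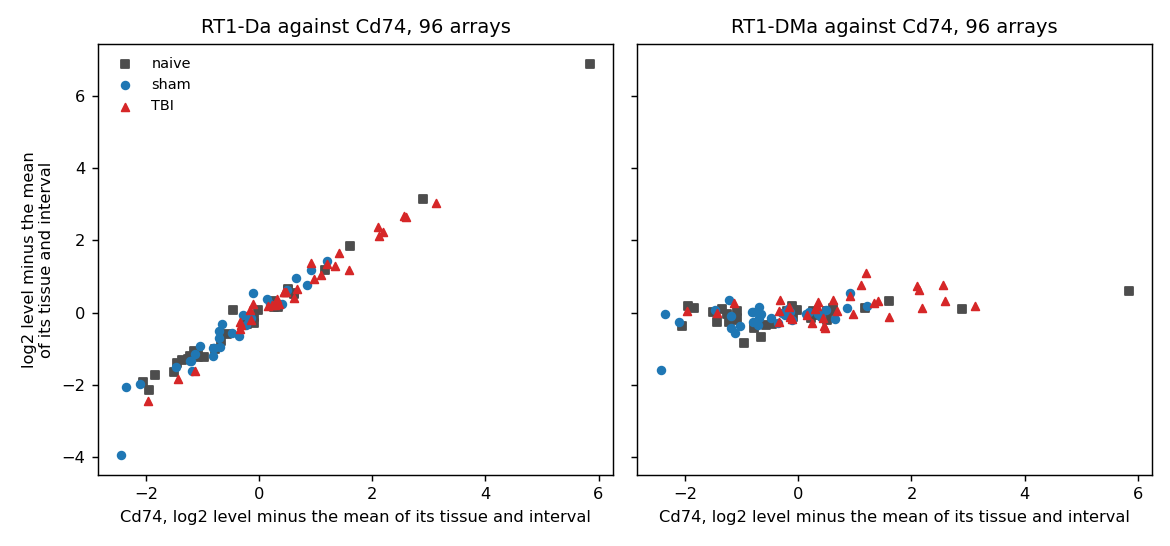
RT1-Da and RT1-DMa against Cd74 in the 96 arrays of the larger design, each in log2 level minus the mean of its tissue and interval; each point is 1 array. RT1-Da (r = 0.985) lies along a line with Cd74, and RT1-DMa (r = 0.535) stays within a narrow band.

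The 10 other genes most like Cd74 by this measure were C2, the complement component (r = 0.878), Pycard, the inflammasome adaptor (0.850), Ly86 (0.845), Cyba, a subunit of the NADPH oxidase (0.845), the class I gene RT1-A2 (0.844), Cd68, a lysosomal protein of macrophages (0.844), the phosphatase Ptpn6 (0.841), Adgre1, the F4/80 antigen (0.840), Casp8 (0.839) and the adaptor Tyrobp (0.838). Without the cortex sham array that stands apart their r ran from 0.833 to 0.873.

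Genes that work with class II molecules were counted in lists next to the members, TBI against sham at 2 weeks. Of all probes 1.83% were called in the hippocampus and 0.662% in the cortex, or 7.98% without the cortex sham array that stands apart. In the hippocampus, where the median difference of all genes was −0.06, the promoter factors Rfx5, Rfxap, Rfxank and the Nfy and Creb1 genes had 0 of 6 tested called, with a median of −0.08. Of the interferon-gamma pathway Irf8 was higher by 1.75 and Ifngr1 by 0.65, and of the genes of peptide processing 3 of 8 were higher (Ctsz by 1.44, Ifi30, a lysosomal thiol reductase, by 1.02 and Lgmn by 0.57). Both costimulation genes tested were higher, Cd86 by 1.48 and Cd40 by 1.14. RT1-Db2, a beta chain close to RT1-Db1 in sequence, was higher by 2.48 and was the 1 other class II gene tested, and the probes of such near copies may share signal. In class I presentation 5 of 8 were higher, among them RT1-A1 by 1.39, Tap1 by 1.16, Psmb9 by 1.02 and B2m by 0.47.

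In the cortex at 2 weeks, the median difference of all genes was −0.04. There 0 of 6 promoter factors were called, while Ctsz (2.32), Ifi30 (2.03), Psmb9 (1.504) and the class I gene RT1-CE16 (2.13) were higher. Without the sham array that stands apart these were higher by 2.12, 1.57, 1.48 and 1.71, 7 of 8 genes of peptide processing and 7 of 8 of class I presentation were called, and of the promoter factors 0 of 6. In the hippocampus at 24 hr, where 16.4% of all probes were called, Ctsz (1.81), Ifi30 (1.08), Lgmn (1.01), Ctsl (0.49) and Jak2 (0.72) were higher. No promoter factor of 4 was called there. In the cortex at 24 hr no gene of any of these lists was called, but only 1 of 25864 tested probes was.

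Markers of microglia and macrophages moved with the members at 2 weeks. In the cortex at 24 hr against naive rats, P2ry12 and Tmem119 went the other way. At 2 weeks 11 of 12 were called higher in the hippocampus of TBI rats, with a median of 1.22, beside 1.54% of all probes. In the cortex 8 of 12 were called higher, with a median of 2.13, beside 0.653%. Cd68 is among these 8 and was well above background on 3 of 4 sham arrays. It entered the test only through the TBI group, so its call adds no support. Without the sham array that stands apart, where 7.98% of all probes were called, 11 of 12 markers were higher, with a median of 1.90. Their summed level was 23.7 to 30.1 in hippocampal sham arrays and 38.4 to 74 in TBI arrays, and 11.9 to 33.3 and 69.2 to 117 in the cortex, where 11.9 was the sham array that stands apart. Among them Trem2 was higher by 1.42 and 2.23 in hippocampus and cortex, and Csf1r, the receptor on which microglia depend, by 1.05 and 2.02. Without that array the cortex values were 2.11 and 1.63. Cx3cr1, the fractalkine receptor, was higher by 0.65 and 1.05.

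Markers of other cell types that can carry class II were summed in the same way. Summed T cell markers at 2 weeks were 1.48 to 2.40 in hippocampal sham arrays and 2.20 to 3.18 in TBI arrays, and 1.90 to 5.54 and 2.94 to 6.50 in the cortex, and both pairs of ranges overlapped. In the cortex the overlap rests on the sham array that stands apart, at 5.54, without which the sham arrays read 1.90 to 2.14 and lay below the TBI arrays. In limma without that array, Cd4 alone of the 4 T cell genes tested was called (higher by 1.22, adjusted p 0.0167). Cd3d (−0.10), Cd3g (−0.19) and Lck (0.10) were not called. Summed B cell markers in the hippocampus were 0.528 to 0.979 in sham and 0.816 to 1.45 in TBI, and Cd22 was the 1 B cell gene called there. Summed dendritic cell markers were 0.290 to 0.346 in sham and 0.292 to 0.389 in TBI, with the defining genes Xcr1, Clec9a and Ccr7 above background on none of these arrays. The part of microglia, macrophages, T cells and B cells in the members' rise was not tested.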

How the data were processed

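The authors labelled RNA for one-colour Agilent arrays, scanned them and extracted the spots with Agilent Feature Extraction. The deposited scanner files hold each spot's processed signal, a background-subtracted intensity on a linear scale, with its median pixel and local background intensity and flags of 0 or 1. The authors also deposited a value table, in which each intensity is divided by 1 constant of the array. The methods name the median, but that constant lay near the 75th percentile of all but 1 array, the exception being replicate 3 of the cortex sham group at 2 weeks.

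Log2 of the processed signal minus the array's 75th percentile over non-control probes was used, after outlier spots were left out and replicate spots averaged. Probes were named through RefSeq accessions (46.3% of the 45598 probes on the larger design and 61.4% of the 30367 on the smaller), and where a gene had several probes the brightest on average stood for it. Where a second probe existed, its correlation with the first over arrays was 0.62 for RT1-Db1, −0.02 for RT1-Bb and 0.27 for Ciita. limma 3.58.1 in R 4.3.3 fitted all arrays of a tissue and interval, the arrays of both tissues or intervals for interactions, and adjusted p over all tested probes, and its steps were tested on simulated data. The files hold no mean pixel intensity, so normexp (offset 50) ran on the median one. Depth has no counterpart on arrays, and their number limits the precision.

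The members and lists were chosen with earlier results of these data known. Named were all 8 members, the 10 genes most like Cd74, genes of the lists called in TBI against sham and cell type markers. p-values measure the spread between the arrays of a group. Same-numbered arrays were not paired in the labels. The correlation of their deviations exceeded 0.1 in every pair in 1 of 10 comparisons of TBI with sham, 1 of 9 of sham with naive, 0 of 9 of TBI with naive and 2 of 3 of naive hippocampus with cortex, so the block was an alternative. The other alternatives were median, quantile and deposited scaling, normexp, no filter on dim probes, the mean of a gene's probes, only the 2 groups compared, the 1.4-fold rule and each array left out in turn. Promoter sequences came from RefSeq (GRCr8) and no promoter was held for RT1-DMb and Ciita. Annotation coordinates of another build were not used.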

Additional observations from a re-analysis of the deposited data

Results flagged for a closer look

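In 154 sets of a member and a group of 4 arrays, 1 array lay far from the other 3 in 6, by a gap over range above 0.829. Chance alone marks about 5% of such sets. Replicate 1 of the hippocampal TBI group at 3 months was high for Cd74 (gap over range 0.839) and RT1-Da (0.860). Replicate 2 of the naive cortex at 3 months was high for RT1-Bb (0.894), and the sham cortex array at 2 weeks that stands apart, replicate 3, was low for RT1-DMa (0.927). RT1-DMb was high in replicate 3 of the naive hippocampus at 6 months (0.857) and in replicate 4 of the sham hippocampus at 6 months (0.837).

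The TBI effect in the hippocampus differed between 12 months and 2 weeks for 4 members by the interaction test in limma, with differences of −4.5003 for Cd74, −4.6507 for RT1-Da, −2.9383 for RT1-Db1 and −3.3752 for RT1-Bb.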

How the results depend on the processing

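Counts below are members called. No direction reversed under any alternative for a member called in TBI against sham. For TBI against sham in the hippocampus at 24 hr (2 called), quantile scaling gave 1, normexp 4, no filter on dim probes 0 and the 1.4-fold rule 4. At 2 weeks in the hippocampus (4 called), no filter gave 2. In the cortex at 2 weeks (2 called), median, quantile and deposited scaling, no filter and only the 2 groups compared each gave 0, and leaving out the sham array that stands apart, chosen after seeing the data, and the 1.4-fold rule each gave 6. Against naive there (3 called), median scaling and no filter gave 1, quantile scaling 0, and leaving out that array or keeping only the 2 groups 6. The 1.4-fold rule gave 1 in the hippocampus at 3 months, 4 in the cortex at 24 hr and 1 in the cortex at 3 months, where none was called. No filter gave 3 of 5 for TBI against naive in the cortex at 24 hr and 1 for sham against naive in the hippocampus at 12 months, and the deposited values gave 1 for sham against naive in the hippocampus at 2 weeks.

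For the fall of the TBI effect from 2 weeks, in the hippocampus to 6 months (0 called) median scaling gave 3 and normexp 1, and to 12 months (4 called) no filter gave 0. In the cortex to 12 months (0 called), normexp and no filter gave 2 and the sham array left out 5. For naive hippocampus against cortex, normexp gave 1 at 2 weeks, median scaling 2, no filter 0 and the naive hippocampus array with the highest members left out (chosen after seeing the data) 2 at 6 months, and no filter 1 at 12 months.

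With the replicate number as a block, TBI against sham in the hippocampus at 24 hr gave 0, the change to 6 months in the hippocampus 1, that to 12 months in the cortex 2, and naive hippocampus against cortex 2 at 2 weeks and 0 at 6 months. The block left the other counts within 1.5 times.

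Leaving out 1 array at a time gave, for TBI against sham, 0 to 3 in the hippocampus at 24 hr (with 1 sham array left, assumed to vary like the others), 2 to 4 there at 2 weeks and 0 to 6 in the cortex at 2 weeks. For TBI against naive it gave 4 to 5 in the hippocampus at 2 weeks, 2 to 5 and 1 to 3 in the cortex at 24 hr and 2 weeks, and 0 to 1 in the cortex at 3 months, where Cd74 was called without TBI replicate 4. For sham against naive in the hippocampus at 2 weeks it gave 0 to 1. The change from 2 weeks gave 0 to 4 (6 months) and 0 to 5 (12 months) in the hippocampus and 0 to 5 in the cortex to 12 months, and naive hippocampus against cortex 0 to 2, 1 to 2 and 1 to 2 at the 3 intervals. Over all probes, TBI against sham at 2 weeks called 458 in the hippocampus, 4 with no filter and 5 with only the 2 groups. In the cortex it called 156, 1881 without the sham array and 1 with only the 2 groups. Without that array the cortex gap between the changes of Cd74 and RT1-Da turned from −0.33 to 0.11, and those to RT1-Db1, RT1-DMa and RT1-DMb lost their adjusted calls. The cause of these changes was not tested. A slide block was not run, since each group lay on 1 slide, and where both groups shared it the fit within the slide is that of only the 2 groups compared.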

Other observations

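The 36 pairs of a hippocampus and a cortex array with the same group, interval and replicate number (2 weeks, 6 and 12 months) were compared, although the labels do not say that equal numbers mark 1 rat. After the group means were subtracted, Cd74 of the pairs had a Pearson r of 0.145 (permutation p = 0.71, Benjamini-Hochberg adjusted over 6 members 0.923) and a Spearman rho of 0.368 (permutation p = 0.0665, adjusted 0.231). Without the 2 pairs farthest from the median r was 0.364. Within intervals r was 0.351 at 2 weeks, −0.0331 at 6 months and 0.675 at 12 months (12 pairs each). None of the 6 members passed the adjusted threshold.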
